A study of Mus musculus with 18 samples.

Results

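Neutrophil granules are made in waves as a myeloid progenitor matures, and the primary (azurophil) granule, the earliest of them, carries myeloperoxidase and a family of serine proteases. The genes described here are those of its core cargo and of a cytosolic inhibitor. Mpo encodes myeloperoxidase, which makes hypochlorous acid from hydrogen peroxide. Elane, Prtn3, Ctsg and Prss57 encode the serine proteases neutrophil elastase, proteinase 3, cathepsin G and neutrophil serine protease 4. Ctsc encodes cathepsin C, which activates these proteases by removing a dipeptide from their N-terminus. Serpinb1a encodes a cytosolic serpin that inhibits the serine proteases and is not itself cargo. Srgn encodes serglycin, the proteoglycan core that binds basic granule proteins. The genes were chosen by symbol, with earlier results of these data known, and all 8 were found among the 34896 genes of the expression table. Transcription of primary granule genes is known to peak at the promyelocyte stage and to stop later, while the proteins stay stored in the mature cell, so that RNA and protein levels part company in this lineage.

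The samples came from bone marrow of adult C57BL/6 mice of 6 to 12 weeks. RNA-seq was made of 3 wild type (WT) cell types with 3 libraries each: granulocyte-monocyte progenitors (GMP, sorted as lineage-negative cKIT+ SCA1- CD16/32+ CD34+ cells), neutrophil precursors (preNeu, Mac1+ Gr1+ cells with high cKIT and intermediate CXCR4) and mature neutrophils (matNeu, SiglecF- CXCR2+). CHD4, the ATPase of the NuRD chromatin remodelling complex, was mapped by ChIP-seq in GMPs of WT and of Gfi1-/- mice, which lack the transcriptional repressor GFI1, and H3K4me2, a histone mark of active and poised promoters and enhancers, was mapped in WT GMP, preNeu and matNeu cells, with 1 library for each ChIP-seq sample. The marrow of several bones was pooled before sorting, and the sources do not say which libraries came from separate mice, so that p-values measure the spread between these samples, which may be technical.

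The titles and the cell type fields of the labels name different cells for 13 of the 18 samples, all 9 RNA-seq libraries among them, and titles were followed. In the RNA-seq the progenitor markers Cd34 and Kit were high in the libraries titled GMP, at 470 ± 39.0 and 187 ± 9.01 TPM (transcripts per 1000000; SD, n = 3), Chil3, Fcnb, Ltf and Camp in those titled preNeu, and Cxcr2 and Retnlg in those titled matNeu. For the H3K4me2 libraries of preNeu and matNeu cells, whose fields also differ from their titles, no such check was made. GMP libraries also held transcripts of other lineages: summed over 5 monocyte markers they held 4307 to 5126 TPM, over 4 eosinophil markers 852 to 1101 TPM and over 5 basophil markers 454 to 540 TPM, against 1051 to 1424, 33.9 to 50.9 and 2.54 to 8.92 TPM in matNeu libraries. Whether other cells were present, and their part in the levels below, was not tested. Fewer expressing cells and less RNA per cell cannot be told apart in bulk samples. Each library sums to 1000000 TPM, a unit that keeps no depth, so that the depth behind each value is unknown.

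The genes lie at 6 places on 5 chromosomes of GRCm38 (GENCODE M21), and on chromosome 10 the proteases are close neighbours. Elane (ENSMUSG00000020125, chr10:79886247-79888215, plus strand) begins 3073 bp after the end of Prtn3 (ENSMUSG00000057729, chr10:79874476-79883174, plus strand), and Prss57 (ENSMUSG00000020323, chr10:79781474-79790961, minus strand) ends 83515 bp before Prtn3. Srgn (ENSMUSG00000020077, chr10:62493833-62527451, minus strand) is elsewhere on the same chromosome. Mpo (ENSMUSG00000009350) is at chr11:87793581-87804413 on the plus strand, Ctsg (ENSMUSG00000040314) at chr14:56099881-56102574 on the minus strand, Ctsc (ENSMUSG00000030560) at chr7:88278085-88310888 on the plus strand, and Serpinb1a (ENSMUSG00000044734) at chr13:32842092-32851185 on the minus strand.

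The promoters of Mpo and of the proteases that lost nearly all RNA in matNeu cells, and that of Ctsc, which carried the strongest CHD4 peak among these genes, are given below from 250 bases before to 50 bases after the start site (RefSeq, GRCm38.p6, read along the gene). Of the 8 genes, 6 were matched in the RefSeq promoter table and Prss57 and Serpinb1a are named only. Capitals mark matches to 4 motifs on either strand: TTNNGNAA for C/EBP factors, GAGGAA for PU.1 (SPI1), TGTGGT for RUNX factors and AAATCA for GFI1.
Mpo, chr11:87793534-87793833: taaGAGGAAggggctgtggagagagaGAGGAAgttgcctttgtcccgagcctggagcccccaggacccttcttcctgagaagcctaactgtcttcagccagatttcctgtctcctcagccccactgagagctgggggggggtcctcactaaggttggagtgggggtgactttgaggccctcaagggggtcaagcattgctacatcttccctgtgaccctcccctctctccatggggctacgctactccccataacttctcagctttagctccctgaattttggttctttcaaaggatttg
Elane, chr10:79886062-79886361: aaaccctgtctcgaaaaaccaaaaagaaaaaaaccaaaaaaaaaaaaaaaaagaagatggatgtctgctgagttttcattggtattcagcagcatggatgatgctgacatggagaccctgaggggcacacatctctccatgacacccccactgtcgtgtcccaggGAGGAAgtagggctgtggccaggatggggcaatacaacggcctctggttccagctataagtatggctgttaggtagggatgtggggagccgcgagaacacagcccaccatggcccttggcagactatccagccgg
Prtn3, chr10:79879417-79879716: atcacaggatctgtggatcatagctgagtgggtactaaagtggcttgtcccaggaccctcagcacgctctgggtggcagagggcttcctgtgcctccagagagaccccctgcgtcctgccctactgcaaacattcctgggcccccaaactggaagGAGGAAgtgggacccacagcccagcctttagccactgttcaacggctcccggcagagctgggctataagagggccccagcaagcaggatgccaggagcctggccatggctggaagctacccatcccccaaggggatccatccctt
Ctsg, chr14:56102525-56102824, minus strand: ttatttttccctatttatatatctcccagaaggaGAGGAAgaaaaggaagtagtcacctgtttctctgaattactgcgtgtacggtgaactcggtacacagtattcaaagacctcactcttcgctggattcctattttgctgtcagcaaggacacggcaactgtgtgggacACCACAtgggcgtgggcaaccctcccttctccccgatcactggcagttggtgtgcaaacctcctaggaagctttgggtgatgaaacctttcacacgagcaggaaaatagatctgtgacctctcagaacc
Ctsc, chr7:88277835-88278134: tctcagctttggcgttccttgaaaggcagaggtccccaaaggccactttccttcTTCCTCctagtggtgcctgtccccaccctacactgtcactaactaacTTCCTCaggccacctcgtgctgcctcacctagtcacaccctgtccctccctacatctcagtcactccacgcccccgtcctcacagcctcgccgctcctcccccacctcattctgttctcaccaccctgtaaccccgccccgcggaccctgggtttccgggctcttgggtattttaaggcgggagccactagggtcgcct

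GAGGAA, the letters that the myeloid factor PU.1 recognises, was in each of these 5 promoters and in neither of the 2 listed promoters of Srgn, the sixth gene searched, and 28.3% of the 32851 promoters of the table hold it on either strand. Its position was near the same in the adjacent protease genes, beginning at -95 from the start site in Prtn3 and at -85 in Elane. In Mpo it stood at -247 and -224, in Ctsg at -216 and in Ctsc, on the opposite strand, at -196 and -149. ACCACA, the reverse complement of TGTGGT, stood at -79 in Ctsg, and 16.8% of all promoters hold this motif. No match to TTNNGNAA (40.7% of promoters) or AAATCA (14.0%) was in these 5 windows, whereas Srgn held TTNNGNAA and TGTGGT, and 32.6% of all promoters held none of the 4 motifs. A match is a description of the letters and not of a bound site.

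Mpo was the most abundant transcript of the whole GMP transcriptome and nearly absent from mature neutrophils. Its level was 31476, 33396 and 31975 TPM in the GMP libraries, 4194, 5097 and 5938 TPM in the preNeu libraries and 1.87, 7.65 and 2.61 TPM in the matNeu libraries. It ranked as number 1 of all genes in each GMP library, between 13 and 17 in preNeu libraries and between 6406 and 9606 in matNeu libraries, and the 3 cell types did not overlap. Mean Mpo fell 6.36-fold from GMP to preNeu and 1255-fold from preNeu to matNeu, with log2 changes of TPM + 1 of -2.68 ± 0.32 (SE) and -10.13 ± 0.32 (adjusted p of 5.14e-05 and 2.26e-09, limma). Here and below p-values are adjusted over all 13061 tested genes, and the pseudocount of 1 understates changes of low levels.

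Elane stood second to Mpo among these genes in GMPs, with 7461, 6173 and 8308 TPM, and ranked between 4 and 5 of all genes. It kept more of its level in preNeu cells than Mpo did, with 3026, 3088 and 2332 TPM, or 38.5% of the GMP mean against 15.7% for Mpo. In matNeu libraries it was at 0.958, 9.07 and 0.194 TPM. GMP and preNeu libraries did not overlap, but the fall of -1.38 ± 0.59 did not pass the test in the fit over all 9 libraries (adjusted p = 0.0684, limma), whose SE includes the spread of the near-zero matNeu values. It passed with GMP and preNeu libraries alone (adjusted p = 0.000451), without matNeu replicate 2 (0.000306), without matNeu replicate 3 (0.0293) and under quantile normalization (0.0316), and over all 18 settings the limma adjusted p was between 0.000306 and 0.244. The fall from preNeu to matNeu was -9.93 ± 0.59 (adjusted p = 1.35e-07, limma).

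Prtn3 and Ctsg were at overlapping levels in GMPs and at separate levels in preNeu cells. Prtn3 was at 2748, 2810 and 3034 TPM in GMP, 762, 836 and 575 TPM in preNeu, and 1.05, 6.90 and 3.14 TPM in matNeu libraries. Ctsg was at 2889, 2536 and 3234 TPM in GMP, 292, 281 and 296 TPM in preNeu, and 0, 2.84 and 0.190 TPM in matNeu libraries. Their GMP ranges overlapped and their preNeu ranges did not, with 25.3% of the GMP mean left for Prtn3 and 10% for Ctsg. Both changes from GMP to preNeu passed the test, at -2.0 ± 0.38 for Prtn3 (adjusted p = 0.000967, limma) and -3.31 ± 0.40 for Ctsg (adjusted p = 4.87e-05, limma). From preNeu to matNeu the changes were -7.46 ± 0.38 for Prtn3 and -7.45 ± 0.40 for Ctsg with the pseudocount of 1, and -7.91 ± 0.51 and -9.36 ± 0.94 with a pseudocount of 0.1, and the means fell 196-fold and 286-fold.

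Prss57 was the least abundant of the 4 proteases in GMPs and the most abundant of them in mature neutrophils. Its levels were 299, 312 and 377 TPM in GMP, 166, 202 and 221 TPM in preNeu, and 7.63, 19.2 and 10.5 TPM in matNeu libraries. Its fall from GMP to preNeu was the smallest among the 5 genes of myeloperoxidase and the proteases that were lower there, with 59.6% of the mean left and a log2 change of -0.75 ± 0.27 (adjusted p = 0.0322, limma). That change was close to the median of all tested genes, -0.52, and under quantile normalization it was -0.46 with a limma adjusted p of 0.164. The call was also lost without GMP replicate 2 or 3 (adjusted p of 0.0625 and 0.104) and without preNeu replicate 1 or 2 (0.111 and 0.0648). From preNeu to matNeu it fell 15.8-fold (-3.96 ± 0.27, adjusted p = 3.22e-07, limma).

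In matNeu cells replicate 2 had the highest trace of Mpo, Elane, Prtn3, Ctsg and Prss57, and of Serpinb1a. The same library held the highest sum of the 4 preNeu markers, 866 TPM against 736 and 696 TPM, and of the 5 basophil markers, 8.92 TPM against 2.54 and 3.66 TPM. The markers did not move together: Ltf was highest in that library (578 TPM against 400 and 423) and Chil3 lowest (178 TPM against 205 and 217), and of the basophil markers Cpa3 was highest (4.33 TPM against 0.855 and 0) and Ms4a2 lowest (0.11 TPM against 0.391 and 0.793). Their part in the traces was not tested. Without it the log2 changes from GMP to matNeu were -13.29 for Mpo and -12.21 for Elane, against -12.82 and -11.31 with it.

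**Figure D1:**
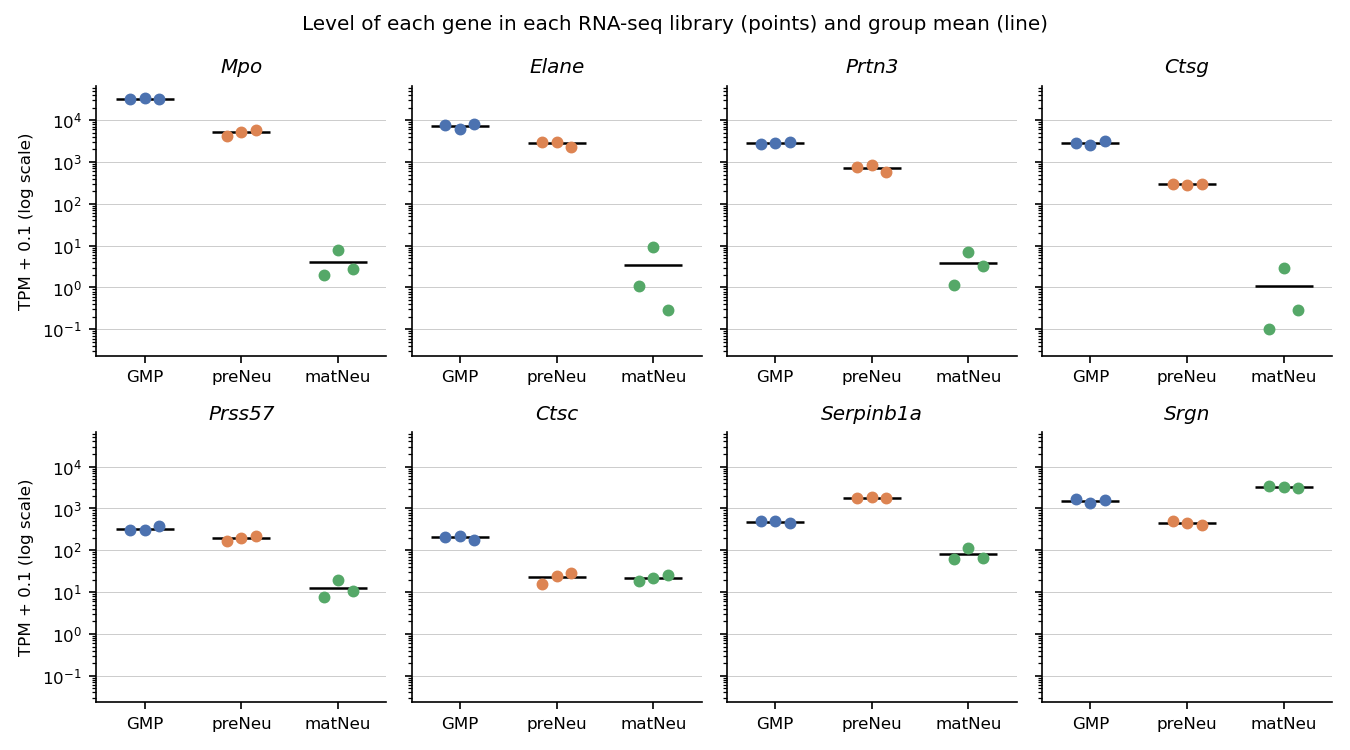
TPM of each gene in each library (points, 0.1 added, log scale) and the group mean (line) in GMP, preNeu and matNeu cells, 3 libraries each. Mpo, Elane, Prtn3, Ctsg and Prss57 step down at each stage, Ctsc is low in preNeu and matNeu cells alike, Serpinb1a is highest in preNeu cells, and Srgn is lowest in preNeu and highest in matNeu cells.

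The activator, the inhibitor and the packaging proteoglycan each followed a course of their own. Ctsc was at 209, 221 and 178 TPM in GMP, 15.9, 24.7 and 29.3 TPM in preNeu, and 18.6, 21.8 and 25.4 TPM in matNeu libraries. It fell 8.72-fold by the preNeu stage (-3.11 ± 0.22, adjusted p = 1.39e-06, limma), more than Mpo, Elane or Prtn3 in ratio of means, and then the preNeu and matNeu libraries overlapped (-0.05 ± 0.22, adjusted p = 0.864, limma). The sign of that last difference turned under quantile normalization, to 0.49 with an adjusted p of 0.0439, and without preNeu replicate 2 or 3 or matNeu replicate 1. In preNeu cells Elane was at a mean of 2815 ± 420 TPM and its activator Ctsc at 23.3 ± 6.81 TPM (SD, n = 3).

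Serpinb1a rose from GMP to preNeu while Mpo, Prtn3, Ctsg and Prss57 fell. It was at 510, 499 and 443 TPM in GMP, 1796, 1870 and 1819 TPM in preNeu, and 63.4, 111 and 63.9 TPM in matNeu libraries. The groups did not overlap, the rise to preNeu was 3.78-fold (1.92 ± 0.19, adjusted p = 1.33e-05, limma), and the later fall was 23.0-fold (-4.56 ± 0.19, adjusted p = 1.03e-08, limma). It was the only one of the 8 genes that rose from GMP to preNeu under the test, in all 18 settings.

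Srgn took the opposite course, falling and then rising above its starting level. It was at 1726, 1318 and 1571 TPM in GMP, 490, 461 and 392 TPM in preNeu, and 3458, 3295 and 3138 TPM in matNeu libraries. The fall was 3.43-fold (-1.78 ± 0.12, adjusted p = 1.36e-06, limma) and the rise from preNeu to matNeu 7.36-fold (2.88 ± 0.12, adjusted p = 1.33e-08, limma). It ranked between 31 and 36 of all genes in matNeu libraries and made up most of what the 8 genes summed to there, 3244 to 3552 TPM.

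Together the 8 genes made up 4.73 to 4.91% of the TPM of a GMP library, 1.07 to 1.19% of a preNeu library and 0.324 to 0.355% of a matNeu library. From GMP to preNeu 6 of the 8 were called lower and 1 higher, where 44.3% of all tested genes were called lower and 14.7% higher (59.0% in either direction). From preNeu to matNeu 6 were called lower and 1 higher, beside 39.8% and 22.9% of all genes (62.8% in either direction), and from GMP to matNeu 7 were called lower and 1 higher, beside 54.1% and 22.8% (76.9% in either direction). Most tested genes changed, so that the count of calls sets the 8 genes little apart. Their median log2 change was -1.89, -6.00 and -7.08 in the 3 comparisons, beside -0.52, -0.32 and -0.92 for all tested genes. Quantile normalization moved the medians of all tested genes to -0.01, 0.03 and 0.03, and the split of calls from GMP to preNeu from 25% to 48.1% higher. The comparisons share libraries and are not independent of each other.

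**Figure D2:**
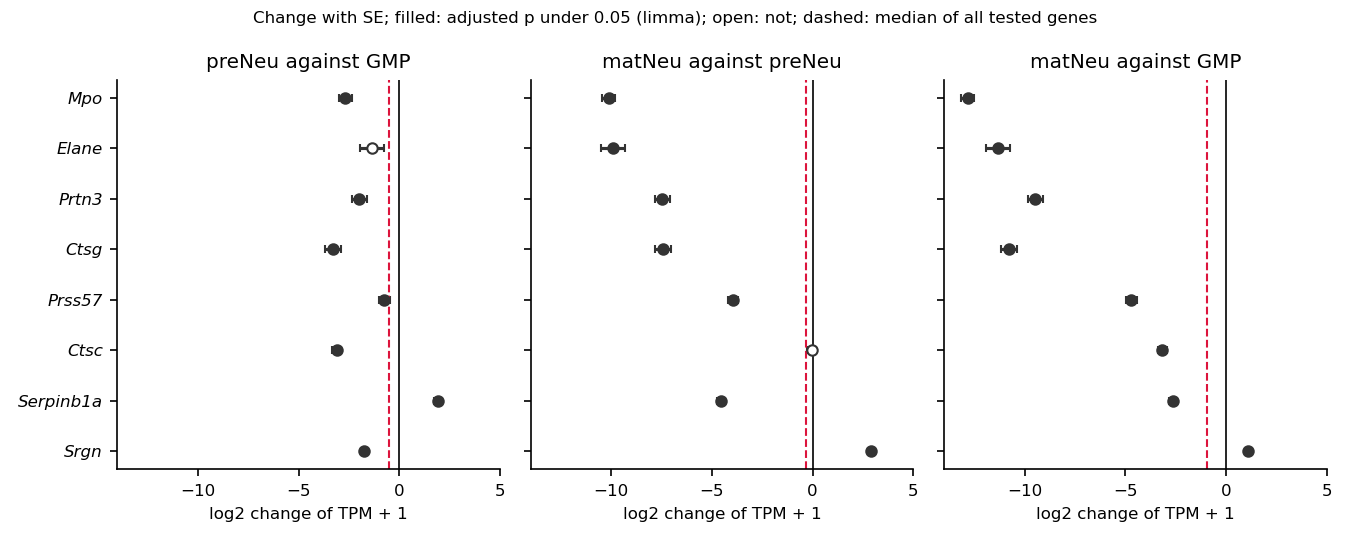
Log2 change of TPM + 1 with its SE for each gene in the 3 comparisons (limma over 9 libraries), filled where the adjusted p is under 0.05, with the median of all 13061 tested genes as a dashed line. Elane in preNeu against GMP (-1.38) and Ctsc in matNeu against preNeu (-0.05) are the open points, and Prss57 in preNeu against GMP (-0.75) lies closest to the dashed line of the filled points in that panel.

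The scale of TPM bears on the GMP to preNeu comparison, since 6 genes of later granules alone summed to 102375 to 130086 TPM in preNeu libraries against 33.5 to 44.0 TPM in GMP libraries. Ratios between genes of 1 library do not depend on that scale. Within GMP libraries Mpo exceeded Elane 4.49 ± 0.816-fold (SD, n = 3), and within preNeu libraries 1.86 ± 0.608-fold. The ratio of Mpo to Prss57 was 99.0 ± 12.4 in GMP and 25.8 ± 0.948 in preNeu libraries, and that of Mpo to Prtn3 was 11.3 ± 0.686 and 7.31 ± 2.63. The ratio of Mpo to Ctsg went the other way, from 11.3 ± 1.68 to 17.5 ± 2.91. In each of the 4 ratios GMP and preNeu libraries did not overlap, and each gave p = 0.1 in a two-sided exact permutation test (0.1 after adjustment over the 4), the smallest value that 3 libraries against 3 allow.

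**Figure D3:**
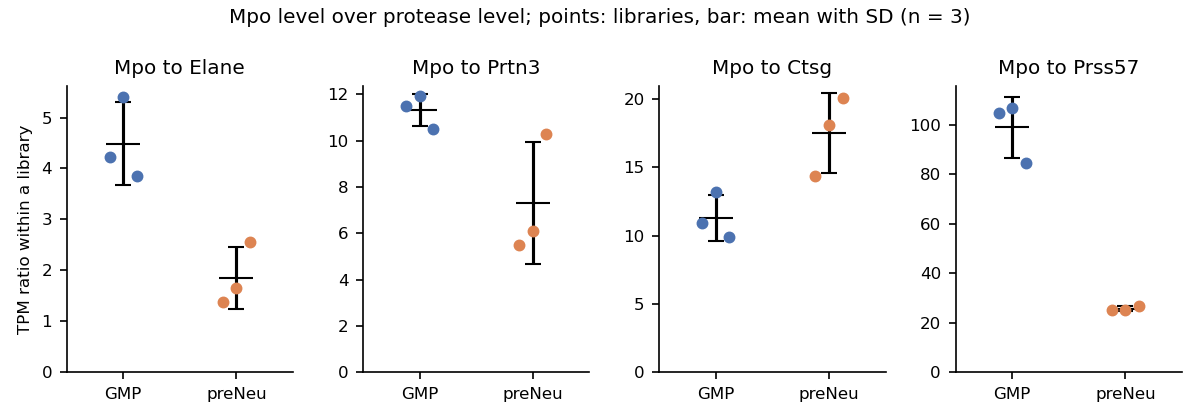
TPM of Mpo divided by that of each protease in the same library, for 3 GMP and 3 preNeu libraries (points) with the mean and SD. The ratio falls for Elane (4.49 to 1.86), Prtn3 (11.3 to 7.31) and Prss57 (99.0 to 25.8) and rises for Ctsg (11.3 to 17.5).

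Myeloperoxidase is made on the endoplasmic reticulum, where it binds heme and passes through chaperones, and genes of these steps were followed beside Mpo. All 5 chaperone and folding genes listed (Calr, Canx, Pdia3, Hspa5, Hsp90b1) were called lower at both steps, beside 44.3% and 39.8% of all tested genes. The calls held under quantile normalization and with rescaled TPM. The median log2 change of the 5 genes was -4.61 from GMP to matNeu, beside -0.92 for all tested genes. Calr, encoding calreticulin, was at 2068 ± 161 TPM in GMP, 199 ± 36.1 TPM in preNeu and 28.0 ± 5.97 TPM in matNeu libraries, and Hsp90b1, encoding GRP94, at 1090 ± 50.7, 335 ± 57.9 and 29.4 ± 8.09 TPM. Of 8 genes of heme synthesis 7 were called lower from GMP to matNeu, beside 54.1% of all tested genes, with a median log2 change of -2.33 beside -0.92. From GMP to preNeu 7 were called lower too, but 4 with rescaled TPM or under quantile normalization. Alas1, the rate-limiting enzyme in non-erythroid cells, went from 1498 ± 54.6 to 742 ± 153 and 226 ± 55.5 TPM. The exception was Ppox, named after its values were seen, which encodes protoporphyrinogen oxidase and rose from 60.4 ± 8.97 to 136 ± 18.8 TPM (1.16 ± 0.17, adjusted p = 9.07e-05, limma). Under quantile normalization 6 of the 8 heme genes were called lower in that comparison.

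Other contents of the azurophil granule did not share the course of Mpo and the proteases. Of 13 lysosomal and antimicrobial genes listed, 12 passed the filter on low values, and 6 were called higher and 5 lower from GMP to matNeu (median log2 change 0.06), beside 22.8% and 54.1% of all tested genes (median -0.92). Lyz2, encoding lysozyme, went from 822 ± 243 TPM in GMP to 31557 ± 3589 in preNeu and 30183 ± 4426 TPM in matNeu libraries, and Ctsd, encoding the aspartic protease cathepsin D, was at 510 ± 40.4, 537 ± 91.7 and 4309 ± 294 TPM. The 6 genes of later granules listed (Ltf, Ngp, Camp, Lcn2, Mmp8, Mmp9) were all called higher than in GMP in preNeu and in matNeu cells. Of all tested genes 14.7% and 22.8% were. From preNeu to matNeu 4 of the 6 were called lower and 2 higher, beside 39.8% and 22.9% of all tested genes. Ltf went from 6.13 ± 1.86 TPM in GMP to 25388 ± 1952 in preNeu and 467 ± 96.8 TPM in matNeu libraries. Mmp9, encoding gelatinase B, went from 1.01 ± 0.251 to 401 ± 51.6 and 6539 ± 184 TPM.

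Further inhibitors of granule proteases were listed beside Serpinb1a. Cst7, encoding cystatin F, an inhibitor of cathepsin C, fell from 395 ± 25.4 TPM in GMP to 79.7 ± 0.708 in preNeu and 0.710 ± 1.07 TPM in matNeu libraries (-8.02 ± 0.33 from GMP to matNeu, adjusted p = 3.88e-09, limma). Slpi, a secreted inhibitor of elastase and cathepsin G, was at 91.1 ± 13.8 and 78.1 ± 14.1 TPM in GMP and preNeu and rose to 1904 ± 466 TPM in matNeu libraries (4.35 ± 0.20, adjusted p = 7.49e-09, limma). Of the 9 listed inhibitors 7 were tested, with 2 called higher and 4 lower from GMP to matNeu, shares near the 22.8% and 54.1% of all tested genes. The paralogues of Serpinb1a, Serpinb1b and Serpinb1c, stayed below the filter, with means of 0.564 and 0.236 TPM in preNeu and 0 in GMP and matNeu libraries, and reads of such close copies could be divided between them by the counting.

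Among 10 listed transcription factors that act on primary granule genes, 7 were called lower and 2 higher from GMP to matNeu, beside 54.1% and 22.8% of all tested genes. Myb went from 197 ± 12.8 TPM in GMP to 58.7 ± 20.1 and 6.48 ± 1.35 TPM, Irf8, which drives the monocyte fate, from 513 ± 32.9 to 12.5 ± 1.6 and 11.2 ± 6.89 TPM, and Gfi1 was at 10.5 ± 6.20, 24.2 ± 4.61 and 0.0482 ± 0.0835 TPM. Spi1, encoding PU.1, rose from 380 ± 132 to 766 ± 63.6 and 2020 ± 142 TPM. Cebpe, which acts at the promyelocyte to myelocyte step and was picked out after its values were seen, peaked in preNeu libraries at 525 ± 79.2 TPM, beside 31.2 ± 16.3 TPM in GMP and 44.3 ± 7.75 TPM in matNeu libraries. Of 13 genes of granule sorting and trafficking 9 were called lower and 3 higher from GMP to matNeu, near the same shares of all tested genes. Jagn1 and Vps45, both genes of inherited neutropenia, fell from 111 ± 10.9 to 5.83 ± 2.38 TPM and from 22.4 ± 0.698 to 0.955 ± 0.468 TPM. Under quantile normalization 5 factors were called lower and 3 higher, and 8 sorting genes lower and 5 higher.

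Among the 10 genes whose levels followed the mean standardised course of Mpo, Elane, Prtn3, Ctsg and Prss57 most closely over the 9 libraries were Cdc6, Aarsd1, Etfa, Golt1b, Gipc1, Psmc3, Fen1, Ftsj1 and Dbi, with Pearson's r between 0.9969 and 0.9989 among 5132 candidates. The r values describe 9 points that form 3 cell types. The 5 genes themselves, which make up that mean course, necessarily lay close to it (r between 0.9938 and 0.9988), and r was 0.81 for Serpinb1a, 0.66 for Ctsc and -0.65 for Srgn. Cdc6, a factor of replication licensing, went from 118 TPM in GMP to 47.5 and 1.03 TPM.

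Genes next to the members were followed to see how far the course of a member extended along its chromosome. Within 50 kb of the 8 genes 16 other protein-coding genes reached a mean of 10 TPM in a cell type. Of these 11 were called lower and 3 higher from GMP to matNeu, beside 54.1% and 22.8% of all tested genes. Their median log2 change was -2.24, beside -0.92 for all tested genes, which entered at a lower limit of 1 TPM. Plppr3 was at 235 TPM in GMP, 30.1 TPM in preNeu and 1.13 TPM in matNeu libraries (-6.81 ± 0.19, adjusted p = 4.17e-10, limma). The annotated spans of Plppr3 and Prtn3 overlap on opposite strands. Tspoap1, 7653 bp upstream of Mpo, went from 112 to 22.8 and 1.13 TPM (-5.87 ± 0.34, adjusted p = 5.27e-08, limma), and Mcpt8, a basophil granule protease 14608 bp from Ctsg, from 97.3 to 76.4 and 1.18 TPM. Other neighbours went elsewhere: R3hdm4, 21837 bp beyond Elane, rose from 157 to 459 and 1262 TPM (2.99 ± 0.10, adjusted p = 1.07e-09, limma), and Palm, 2611 bp from Prss57, was at 119, 130 and 125 TPM.

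CHD4 in WT GMPs was found near 5 of the 8 genes and was not listed near Elane, Prtn3 or Prss57. Within 10 kb of the genes 28 CHD4 peaks were listed: 7 at Mpo, 7 at Serpinb1a, 6 at Ctsc, 5 at Srgn and 3 at Ctsg. Over all 21938 protein-coding genes 32.4% had a CHD4 peak within 10 kb, 39.0% of the 2037 genes of at least 100 TPM in GMP, and 39.4% of the 94 most abundant of these. At least 7 peaks, as at Mpo and Serpinb1a, were near 5.20% of protein-coding genes and 5.45% of those of at least 100 TPM in GMP. The strongest peak of these genes lay over the start site of Ctsc (chr7:88276824-88278660) with a fold enrichment over background of 46.5 and a summit at -216 from the start site, stronger than 98.9% of the 35790 peaks of the list. At Mpo the peaks at the promoter (chr11:87793134-87794297), upstream of it (chr11:87789535-87790752, summit at -3454 from the start site) and downstream of the gene, with the summit at 12674 (chr11:87805877-87807642, over the neighbouring Lpo, the lactoperoxidase gene) had fold enrichments of 21.5, 28.6 and 26.4. Ctsg had a weaker peak over its start site, 7.92-fold (chr14:56102300-56102848), Serpinb1a 1 of 6.79-fold (chr13:32851140-32851362) and Srgn 1 of 4.87-fold at the downstream of its 2 start sites (chr10:62507577-62507855).

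The 3 proteases without CHD4 lie in a stretch of chromosome 10 that held no CHD4 peak at all. It ran for 1.10 Mb between the nearest listed peaks (chr10:79590989-80695437), with 68 protein-coding genes, 19 of them of at least 100 TPM in GMP, and held none of the Gfi1-/- peaks either. The same stretch held 98 H3K4me2 peaks in GMP. With 1 library and an unknown depth this says that no peak was listed, not that CHD4 was absent.

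In Gfi1-/- GMPs a CHD4 peak overlapped 6 of the 28 WT peaks (by at least 1 bp): 3 at Mpo, 2 at Ctsc and 1 at Serpinb1a, so that 3 of the 8 genes had a Gfi1-/- peak within 10 kb, as did 10.2% of protein-coding genes. Over the whole list 18.5% of WT peaks were kept in this sense, so that the share at these genes was near the background. The peaks that were kept were those that were strongest in WT cells. All 6 peaks with a fold enrichment of at least 20 were kept and none of the 22 weaker peaks was, where 90.5% of all WT peaks of at least 20-fold, 28.9% of those of 10- to 20-fold 2.52% of those of 5- to 10-fold and 2.73% of those below were kept (limits chosen after the values were seen). The fold enrichment of the kept peaks was lower in Gfi1-/- cells: 8.52 against 46.5 at the Ctsc promoter, 7.33 against 24.0 upstream of Ctsc (summit at -6385), 6.70 against 28.6 upstream of Mpo, 5.83 against 21.5 at the Mpo promoter, 6.08 against 26.4 downstream of Mpo and 6.94 against 22.3 beyond the 3′ end of Serpinb1a. The change over all kept peaks of the list is not given here, so that these falls are not read as particular to these genes. The Gfi1-/- list is shorter as a whole, with 7316 peaks and a highest fold enrichment of 66.9 against 101 in WT. Its median fold was 6.38 against 7.72 in WT, and genotype and library cannot be told apart with 1 library each. With as many WT peaks as the Gfi1-/- list holds, taken by q-value, 7 WT peaks were left near these genes, at 3 of the 8, and 6 of the 7 were kept. Shares over all peaks and genes of that shortened list are not given here. Since strong peaks were mostly kept over the whole list (90.5% of those of at least 20-fold), the 6 of 7 are not read as particular to these genes.

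**Figure D4:**
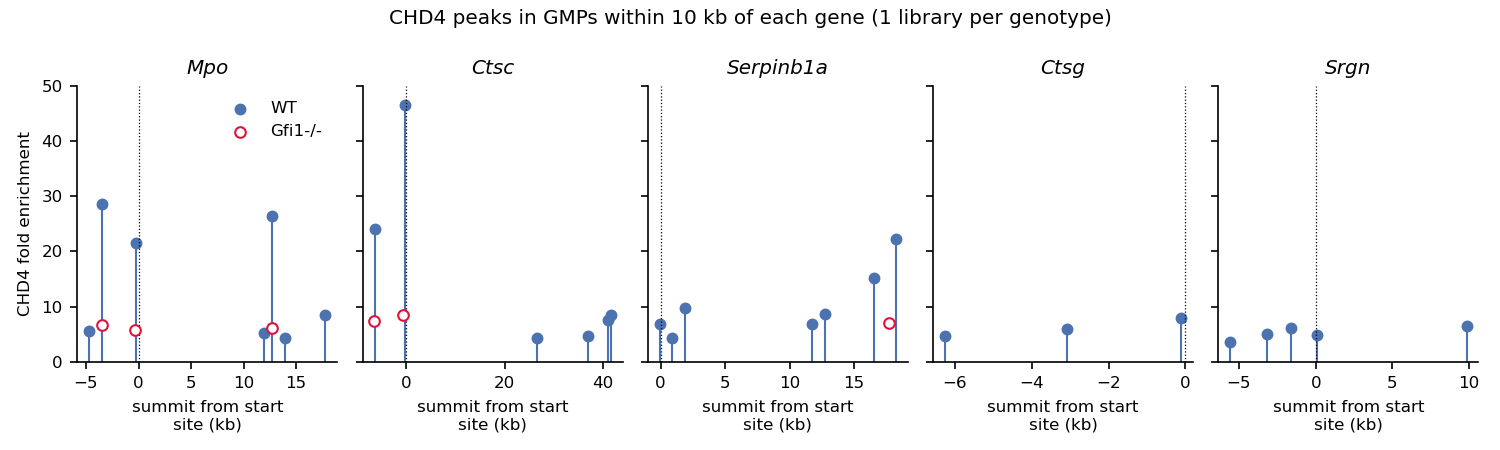
Fold enrichment of CHD4 peaks in WT (filled, with stems) and Gfi1-/- (open) GMPs against the distance of the summit from the nearest start site, in kb along the gene, for the 5 genes with a peak within 10 kb, 1 library per genotype. Gfi1-/- peaks stand under the WT peaks of 21.5- to 46.5-fold at Mpo and Ctsc and near that of 22.3-fold at Serpinb1a, and there are none at Ctsg and Srgn.

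The 2 distal Mpo peaks that were kept are shown by 100 bases on either side of their WT summits (RefSeq GRCm38.p6, plus strand, capitals as above).
Mpo upstream, chr11:87790230-87790430: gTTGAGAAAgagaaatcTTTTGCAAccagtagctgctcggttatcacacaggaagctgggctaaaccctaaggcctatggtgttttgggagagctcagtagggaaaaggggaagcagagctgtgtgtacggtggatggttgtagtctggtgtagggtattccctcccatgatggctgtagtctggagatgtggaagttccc
Mpo downstream, chr11:87806358-87806558: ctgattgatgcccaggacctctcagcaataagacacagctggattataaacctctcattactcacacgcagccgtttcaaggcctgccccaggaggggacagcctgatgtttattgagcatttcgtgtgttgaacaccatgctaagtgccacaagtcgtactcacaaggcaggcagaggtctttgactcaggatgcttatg
The upstream window held 2 matches to TTNNGNAA, at -99 and -83 from the summit, and none to the other 3 motifs. The downstream window held none of the 4 motifs.

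H3K4me2 covered a start site of all 8 genes in GMP, preNeu and matNeu cells alike, also where RNA was nearly gone. Over all protein-coding genes the share was 52.4%, 57.2% and 55.1% in these cell types, and over those of at least 100 TPM in GMP 79.7%, 97.3% and 96.6%. In matNeu cells Mpo kept a peak of 4429 bp over its start site with a fold enrichment of 5.01 (chr11:87793392-87797820), Ctsg 1 of 3332 bp and 6.82-fold (chr14:56100267-56103598), and Elane 1 of 2115 bp and 2.91-fold (chr10:79886238-79888352). Of 448 protein-coding genes with at least 100 TPM in GMP and under 10 TPM in matNeu cells, 94.6% had an H3K4me2 peak over a start site in matNeu cells, beside 81.5% in GMP and 95.8% in preNeu cells. In GMP cells the mark was listed with low enrichment throughout (highest fold 7.98, against 120 in preNeu and 65.3 in matNeu cells). At a -log10 q-value of at least 5 a start site of 3 of the 8 genes was covered there, against 8 in preNeu and 7 in matNeu cells. The share of all genes at that limit is not given here, so that these counts are not read as particular to the 8 genes.

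At Mpo, Ctsg and the Prtn3-Elane pair the mark was listed as 1 long domain over the genes in preNeu cells and as shorter peaks in matNeu cells. The Mpo domain measured 13725 bp in GMP (longer than nearly all peaks of that list) and 16405 bp in preNeu cells. Its fold enrichment was 3.56 and 8.33, higher than 78.3% and 75.9% of the peaks of the 2 lists. The median fold of these lists was 2.89 in GMP and 4.55 in preNeu cells, so that folds of separate libraries are not on 1 scale. In matNeu cells the same region held peaks of 875, 4429 and 4533 bp. Prtn3 and Elane shared 1 peak of 16853 bp and 12.8-fold in preNeu cells (chr10:79872912-79889764), wider than 99.7% of that list. In GMP cells the pair was covered by peaks of 6192 and 10709 bp (4.22- and 4.13-fold). Their folds were higher than 94.1% and 92.8% of the GMP list, and that of the preNeu peak than 95.7% of its list. In matNeu cells a peak of 2318 bp at the 5′ end of the annotated Prtn3 span was 12.5-fold enriched. That peak also lay over the 5′ end of Plppr3, annotated on the opposite strand, and did not cover the RefSeq start site of Prtn3. The peak on the rest of Prtn3 (8717 bp, 6.79-fold) was parted from that on Elane (2.91-fold, higher than 29.1% of the matNeu list). These lists are called separately in each library, so that a domain can break where enrichment falls below the caller's limit.

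The share of each gene and 10 kb on both sides under the mark was lowest in matNeu cells for Mpo, Ctsg, Elane and Prtn3. For Mpo it was 50.5% in GMP, 60.1% in preNeu and 33.9% in matNeu cells, for Ctsg 37.4%, 34.6% and 23.1%, for Elane 55.5%, 61.5% and 50.1%, and for Prtn3 58.9%, 58.7% and 46.0%. For Serpinb1a it rose from 24.1% in GMP to 62.6% in preNeu cells and was 49.4% in matNeu cells, and for Srgn it was 25.3%, 42.9% and 36.5%. Prss57, with 32.6%, 56.4% and 50.7%, also had more in the later cells than in GMP, unlike its RNA, and Ctsc had 7.58%, 4.76% and 4.61%. The median over protein-coding genes of at least 100 TPM in GMP was 11.4% in GMP, 18.2% in preNeu and 14.2% in matNeu cells, and each of the 8 genes but Ctsc stood above it in all 3 cell types. The lists cover 49.8, 97.9 and 80.4 Mb in all.

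**Figure D5:**
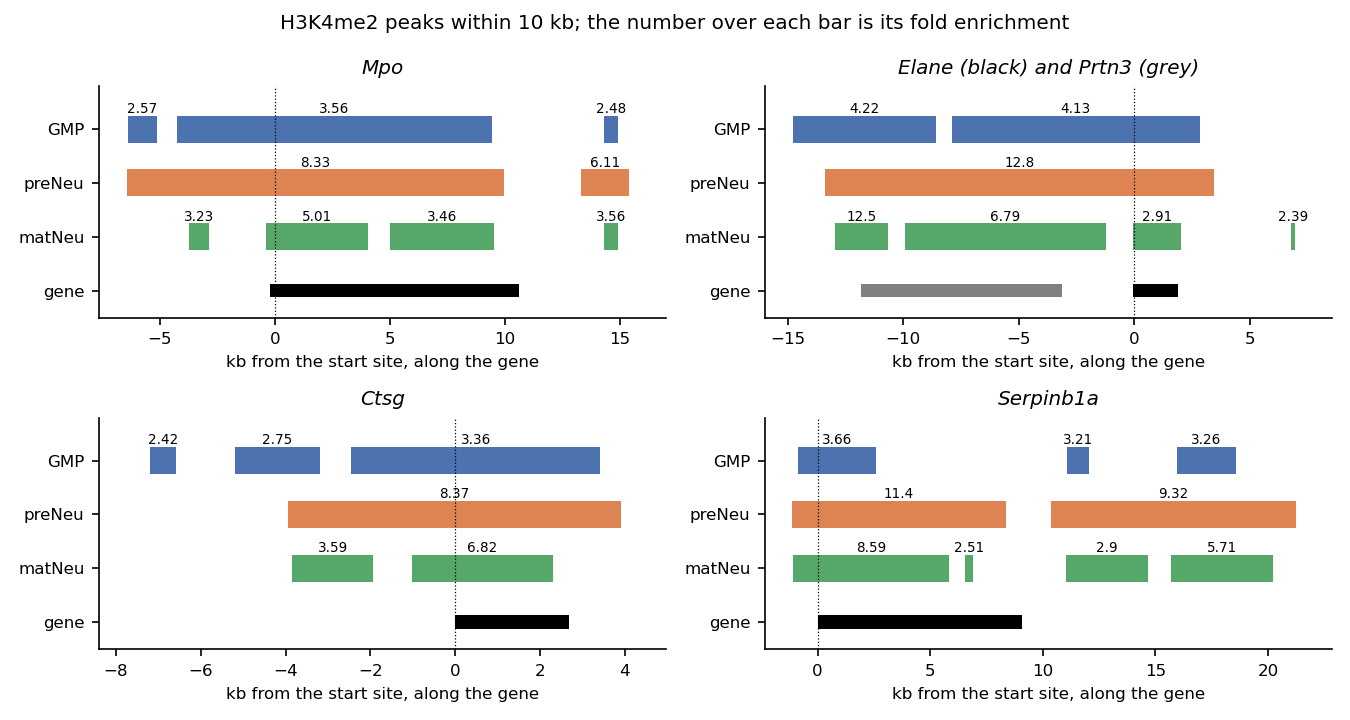
H3K4me2 peaks (bars, with the fold enrichment above each) in GMP, preNeu and matNeu cells against the distance from the start site in kb along the gene, for Mpo, Elane with Prtn3, Ctsg and Serpinb1a, with the annotated gene in the lowest row. The Mpo domain of 3.56-fold in GMP and 8.33-fold in preNeu cells is split in matNeu cells, and Serpinb1a has its broadest peaks in preNeu cells (11.4- and 9.32-fold).

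ATAC-seq marks open chromatin, and the lists for preNeu and matNeu cells were identical in all 16307 peaks, so that they were read as 1 list whose cell type cannot be told. It held a peak over a start site of Srgn and of Ctsc, further peaks within 10 kb of Srgn (4 in all) and of Prss57 (2), and none within 10 kb of Mpo, Elane, Prtn3, Ctsg or Serpinb1a. Of the 7 members with at least 100 TPM in preNeu cells 1 had a peak over a start site and 2 within 10 kb, against 80.1% and 94.4% of all 1510 such genes, and of all genes with at least 100 TPM in matNeu cells 78.4% had a peak over a start site. Of the 5 members with at least 100 TPM in preNeu and under 20 TPM in matNeu cells 0 had an ATAC peak over a start site and 1 had a peak within 10 kb, where 66.4% and 86.4% of the 214 protein-coding genes with such levels did.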

How the data were processed

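RNA-seq, CHD4 and H3K4me2 ChIP-seq and ATAC-seq were read from the processed files. The expression values were deposited as TPM per gene and library. The submitters' processing notes list kallisto 0.44.0, BWA 0.7.17, Trimmomatic 0.36 and MACS2 2.1.0 and the build mm10, whereas the study's methods name other RNA-seq tools, so that the way the TPM were made is uncertain. Peak lists were deposited with a fold enrichment (a ratio to background) and a -log10 q-value for each peak, called by the authors in each library. Lists for GFI1 and H3K4me3, which hold peaks beyond chromosome ends of GRCm38, were not used.

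Genes that reached 1 TPM in 3 or more libraries entered 1 limma fit of log2(TPM + 1) over the 9 libraries (limma 3.58.1 in R 4.3.3, variance trend, Benjamini-Hochberg adjustment, threshold 0.05). Ratios of genes were compared by exact permutation. TPM and peak lists hold no counts, so that no depth or counting interval can be given.

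Peaks were assigned to a gene within 10 kb of its GENCODE M21 span and counted as kept with an overlap of at least 1 bp. Start sites came from RefSeq where listed and otherwise from GENCODE. The text names the 8 genes, up to 4 genes of each list with the largest change from GMP to matNeu, neighbours within 50 kb of at least 10 TPM, and the 10 genes most like the mean course of Mpo and the 4 proteases, among genes of at least 50 TPM. Some genes that this rule names are not reported here. The genes and lists were chosen with earlier results of these data known. Alternatives were another pseudocount, filter, scaling and fit, each library left out, and other windows and peak thresholds.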

Additional observations from a re-analysis of the deposited data

How the results depend on the processing

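Of 408 recomputed changes of the 8 genes, 392 kept their direction and their side of the threshold. The change of Ctsc from preNeu to matNeu reversed to 0.49 under quantile normalization, and with 1 library left out it was between -0.29 and 0.13 (0.01 without preNeu replicate 2, 0.13 without preNeu replicate 3, 0.06 without matNeu replicate 1). Elane from GMP to preNeu gained the call under 4 settings. Prss57 from GMP to preNeu lost it under 8 settings, among them TPM rescaled without the 20 most abundant genes (-0.36, adjusted p = 0.282, limma). The cause was not tested.

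Replicate numbers were shared between cell types, but same-numbered libraries did not deviate together (correlations of their deviations from -0.0394 to 0.1233). With the replicate block 7652, 8142 and 10032 genes were called in the 3 comparisons, against 7706, 8197 and 10041 without it, and 7, 7 and 8 of the 8 genes. With 1 library left out 6948 to 7845, 7683 to 8202 and 9659 to 10043 genes were called. Of calls from GMP to preNeu, preNeu to matNeu and GMP to matNeu 25%, 36.5% and 29.6% were higher, 48.1%, 50.3% and 50.2% under quantile normalization, and 39.7%, 29.0% and 31.1% with rescaled TPM.

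With as many WT CHD4 peaks as the Gfi1-/- list holds 7 peaks at 3 of the 8 genes were left, of 28 at 5. At a -log10 q-value of at least 5, H3K4me2 peaks near the genes numbered 5 of 24 in GMP, with 3 of 8 genes covered at a start site and 13% of the windows covered, and 13 of 25 in matNeu cells. Shares of all peaks and genes at these limits are not given, so that the counts are not read as particular to the 8 genes. Low enrichment in the GMP list limits what it can show.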
